A study of Mus musculus with 8 samples.

Results

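The interleukin and interleukin receptor genes outside the IL-6 family and outside the listed IL-1 genes were examined in RNA sequencing of mouse tumors. A gene was included where its symbol begins with Il and a digit and where it is none of Il6, Il6ra, Il6st, Il11, Il11ra1, Il11ra2, Il34, Il1a, Il1b, Il1rn, Il1r1, Il1r2, Il1rap, Il1rl1, Il33, Il18 and Il18r1. Of 85 genes with such a symbol, 17 were left out and 68 remained, among 27179 genes deposited. Despite the name of the set, 11 of the 68 belong to the wider IL-1 superfamily, among them Il1rl2 and Il18rap, because the rule leaves out named genes and not whole families.

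Tumors were grown subcutaneously in adult male CD2F1 mice from C26 cells, a mouse colon carcinoma line whose cachectic variant, cxC26, causes wasting of the host. The 4 cxC26 scr tumors came from cells that had received Cas9 with a scrambled guide RNA. The 4 cxC26 IL6KOs1 tumors came from a single subclone in which the Il6 gene had been disrupted with CRISPR/Cas9. Both groups were collected once the host mouse had become cachectic, and no deletion was named for the host mice, whose cells in the tumor are part of each sample. In comparable experiments of the study more cells were inoculated for the knockout subclone and its tumors reached the endpoint later, so genotype, clone, inoculum and age of the tumor cannot be told apart. The labels do not tie each tumor to a named mouse, and the p-values measure the spread between these tumors.

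The depth was 14158989 to 17048062 reads counted on genes per tumor (median 15384973). Il6, the targeted gene, gave 356, 326, 376 and 438 reads in the controls and 64, 56, 86 and 59 in the knockout tumors, with reads of host cells and of disrupted transcripts included. Of the epithelial markers of a colon carcinoma, the intestinal keratin Krt20 had 17390 to 22185 reads in each tumor. Epcam had only 0 to 14, Krt19 0 to 1 and Vil1 0 to 3. Others of the 8 listed epithelial markers differed between the groups. The keratin gene Krt18 had 21 to 30 reads in the controls and 140 to 282 in the knockout tumors, and Krt8 had 3 to 6 and 9 to 15. The cadherin gene Cdh1 had 17 to 37 and 45 to 87, and Cdx2, an intestinal transcription factor, had 17 to 34 and 0 to 1. Values below are log2 CPM, the logarithm of the reads scaled to library size, or the reads recovered from it.

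Interleukins are secreted proteins by which leukocytes, stromal cells and epithelial cells signal to each other. Most act through receptors built from a private chain, which sets the specificity, and a shared chain. IL-2, IL-4, IL-7, IL-9, IL-15 and IL-21 share the common gamma chain encoded by Il2rg, and IL-3 and IL-5 share the common beta chain. These receptors, and those of the IL-10 and IL-12 families, signal through Janus kinases and STAT transcription factors. IL-17 receptors use the adaptor ACT1, encoded by Traf3ip2, and receptors of the IL-1 superfamily use MyD88. Lymphocytes make many of the ligands, while receptor chains are spread over lymphocytes, myeloid cells, fibroblasts and carcinoma cells. In bulk tissue fewer cells of a type and less RNA per cell cannot be told apart.

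The receptor genes, much more than the ligand genes, gave measurable RNA. Of the 68 genes, 25 reached 1 CPM in 4 or more tumors and were tested, and 43 did not. Among 31 receptor genes 21 passed this filter, whereas among 32 ligand genes 3 passed, namely Il7, Il15 and Il16. Of the 2 soluble inhibitors Il18bp passed, and neither of the 2 amino acid oxidase genes (Il4i1, Il4i1b) nor the antisense RNA Il1bos did. Of the genes under the filter, 12 had 0 reads in all 8 tumors, 23 had 1 to 19 reads in all and 8 had 20 or more. Taken alone, 0 reads in a single tumor allow a level of up to 3 reads there.

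With limma and Benjamini-Hochberg adjustment over 13262 tested genes, 8 of the 25 rose and 4 fell in the cxC26 IL6KOs1 tumors at an adjusted p under 0.05. The 8 are 32.0% of the 25, beside 19.1% of all tested genes called higher, and the 4 are 16.0%, beside 20.7% of all tested genes called lower. The values of the groups did not overlap for 12 of the 25 (48.0%), beside 37.1% of all tested genes. The median log2 fold change of the 25 was 0.29, against -0.0029 for all tested genes. The higher genes were Il2rb, Il7, Il13ra2, Il21r, Il10ra, Il17rc, Il17ra and Il10rb, and the lower genes were Il1rl2, Il17rd, Il18rap and Il3ra. The calls of Il17ra and Il10rb were marginal, and each was lost under most of the other settings tried. Each of the other 10 was called in all 16 alternatives, which are 8 other settings and 8 fits that left out a tumor in turn. The 12 genes whose groups did not overlap include Il15, which was not called, and leave out Il17ra. For each of them a two-sided exact permutation test gave p = 0.0286, the smallest that 4 against 4 allows. Groups without overlap always give this value, so it adds nothing to the separation itself.

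**Figure D1:**
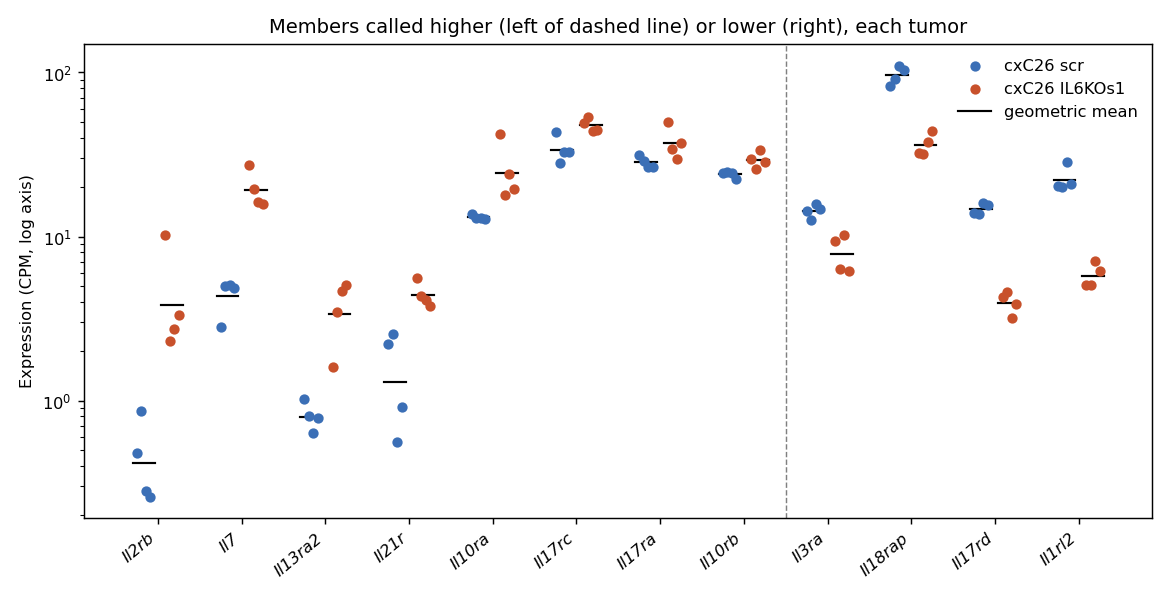
Expression of the 12 called genes in each tumor in CPM on a log axis, with blue points for cxC26 scr, orange points for cxC26 IL6KOs1 and a black line for the geometric mean of each 4. The groups are separate for 11 of the 12 genes and overlap for Il17ra, and the orange Il2rb point at 10.3 CPM is cxC26 IL6KOs1 replicate 1.

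Il7 was the only one called of the 3 ligand genes tested. It encodes IL-7, a cytokine made mainly by stromal and epithelial cells that keeps T cells alive. Its reads were 47, 81, 72 and 75 in the control (cxC26 scr) tumors and 441, 269, 255 and 230 in the knockout (cxC26 IL6KOs1) tumors. The lowest knockout tumor had 15.9 CPM and the highest control had 5.06 CPM. The increase was 4.42-fold, or 2.14 ± 0.23 on the log2 scale (SE, n = 4 per group, limma adjusted p = 4.5e-05). The gene lies on chromosome 3 (7572028 to 7613760, GRCm38.p6), and its 15 tested neighbours within 5 Mb had a median log2 fold change of 0.31.

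The receptor for IL-7 did not pass the threshold. Il7r, a chain of this receptor carried by T cells and their precursors, had 15, 43, 24 and 14 reads in the control tumors and 102, 47, 38 and 27 in the knockout tumors. The groups overlapped, and the log2 difference was 1.16 ± 0.43 (limma adjusted p = 0.0506). It crossed the threshold after re-centring each tumor on its median (adjusted p = 0.0472), without cxC26 scr replicate 2 (1.46, adjusted p = 0.0227 by limma) or without cxC26 IL6KOs1 replicate 4 (1.40, adjusted p = 0.0299), and it was 0.83 (adjusted p = 0.124) without cxC26 IL6KOs1 replicate 1.

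Il2rb rose the most of the 25. It encodes the beta chain shared by the receptors for IL-2 and IL-15, found on natural killer cells and T cells. The 4 control tumors had 8, 14, 4 and 4 reads, and the 4 knockout tumors had 167, 32, 43 and 48. Every control lay under 1 CPM (0.260 to 0.865), so Il2rb met the filter only through the knockout tumors. Its place among the 25 and in the count of 8 depends on that filter. In the fit without a filter the adjusted p from limma was 0.000766. No values overlapped, and cxC26 IL6KOs1 replicate 1 stood far above the rest. The log2 difference was 3.09 ± 0.50 (8.53-fold, limma adjusted p = 0.000657), 2.62 without that tumor (adjusted p = 0.000705) and 1.77 with a pseudocount of 1 CPM (adjusted p = 0.00154).

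Il21r, the private chain for IL-21 on lymphocytes, also rose. Its reads were 37, 41, 8 and 14 in the controls and 91, 60, 65 and 55 in the knockout tumors. The controls spread widely, from 0.562 to 2.53 CPM, and lay below the lowest knockout tumor at 3.80 CPM. The change was 1.73 ± 0.42 (3.31-fold, limma adjusted p = 0.00697).

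The remaining chains of this receptor family did not pass. Il2rg, the common gamma chain itself, had 428, 290, 181 and 216 reads against 596, 293, 278 and 265, which overlap (0.40 ± 0.26, limma adjusted p = 0.233). Il15ra, which presents IL-15 to neighbouring cells, differed by 0.44 ± 0.26 (adjusted p = 0.203). Il2ra, the high-affinity chain for IL-2 on activated and regulatory T cells, differed by -0.06 ± 0.46 (adjusted p = 0.935), with a 95% interval of -1.07 to 0.95 that spans large changes either way. Il4ra, the chain that binds IL-4, had 1239 to 1629 reads in the controls and 1354 to 2136 in the knockout tumors (0.24 ± 0.11, adjusted p = 0.0961). It passed with quantile normalization (0.29, limma adjusted p = 0.0409) and without cxC26 IL6KOs1 replicate 4 (0.30, adjusted p = 0.0482).

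Il15, whose product sustains natural killer cells and memory T cells, had 14, 42, 34 and 38 reads in the controls and 85, 37, 49 and 48 in the knockout tumors. After scaling to library size every knockout tumor lay above every control, but the margin was small. On the log2 scale the difference was 0.86 ± 0.37 (limma adjusted p = 0.083), and 0.48 (adjusted p = 0.17) without cxC26 scr replicate 1, the lowest tumor. The remaining ligands of the family, Il2, Il4, Il9 and Il21, were under the filter with 3, 11, 0 and 6 reads over all 8 tumors, and the 6 Il21 reads were all in cxC26 scr replicate 2.

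Markers of lymphocytes moved in the same direction as these genes. All 5 tested T cell markers were called higher (Cd3g, Cd2, Lck, Cd8a and Cd4), and the 7 listed T cell markers summed to 2.53 to 4.20 CPM in the control tumors and 11.1 to 21.4 CPM in the knockout tumors. Of the natural killer and cytotoxic cell markers 3 of 4 tested were called higher, with sums of 1.49 to 3.40 CPM against 4.56 to 26.4 CPM. Cd3g, Cd2, Cd8a, Nkg7 and Klrd1 had at most 5 reads in any control, so they met the filter only through the knockout tumors. The counts of called markers in these lists therefore depend on the filter, whereas the sums take in every listed gene. The highest sums of both lists were in cxC26 IL6KOs1 replicate 1, the tumor with the most Il2rb, Il7 and Il21r reads. Macrophage markers were called higher in 6 of 6, with sums of 372 to 482 CPM against 655 to 1441 CPM. The part of these cells in the changes of Il2rb, Il7, Il21r or Il10ra was not tested.

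**Figure D2:**
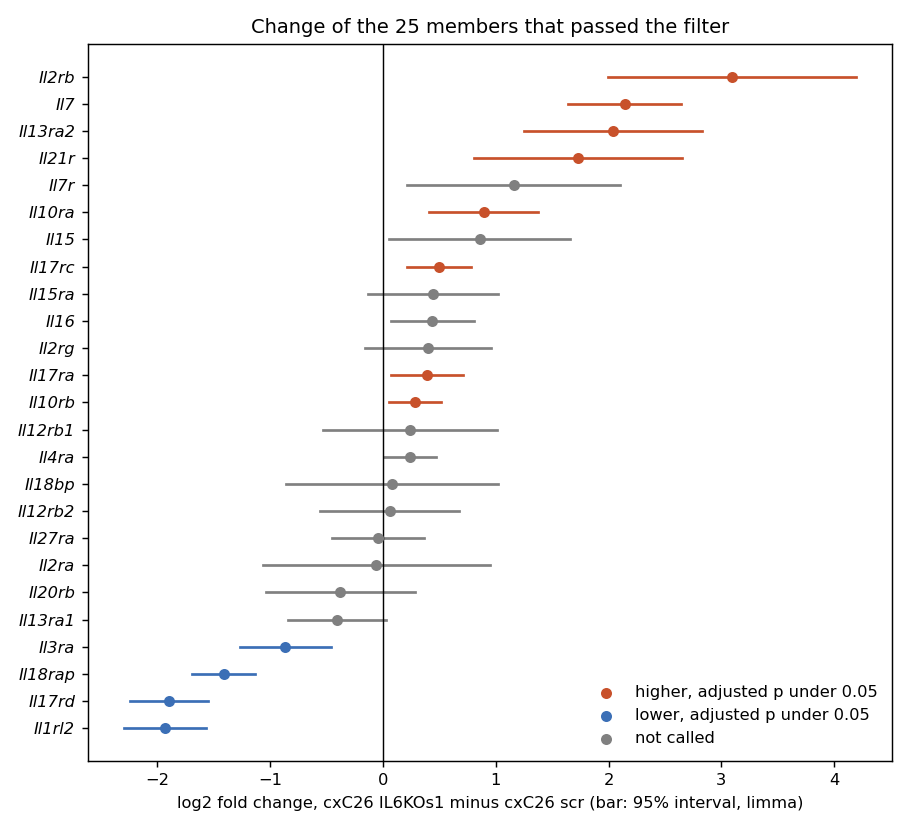
The log2 fold change of each of the 25 tested genes, cxC26 IL6KOs1 minus cxC26 scr, with its 95% interval from limma; orange marks a call of higher, blue a call of lower and grey no call. Il2rb stands at 3.09 and Il1rl2 at -1.93, and the interval of Il7r excludes 0 although its adjusted p of 0.0506 misses the threshold.

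Of the IL-1 superfamily genes in the set 3 passed the filter and 2 were lower. Il1rl2 encodes the receptor for the IL-36 cytokines, which epithelial and myeloid cells use in barrier inflammation. It had 338, 323, 404 and 320 reads in the control tumors and 82, 70, 112 and 89 in the knockout tumors. All 4 knockout tumors were far below the lowest control. Il1rl2 fell by 1.93 on the log2 scale (SE 0.17, limma adjusted p = 9.51e-06).

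Il18rap encodes the accessory chain that the IL-18 receptor needs for signalling, and is best known from T cells and natural killer cells. It had 1371, 1472, 1569 and 1589 reads in the controls and 522, 441, 591 and 641 in the knockout tumors. The groups were well apart. Il18rap fell by 1.41 on the log2 scale (SE 0.13, limma adjusted p = 1.36e-05). Its level and the summed T cell and natural killer cell markers changed in opposite directions between the groups. The part of these cells in the change of Il18rap was not tested.

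Both genes lie in the cluster of IL-1 receptor genes on mouse chromosome 1, Il1rl2 at 40324589 to 40367555 and Il18rap at 40515362 to 40551707. Its other genes, which the rule leaves out, gave a mixed pattern. Il1r1 fell by 1.43 (limma adjusted p = 2.49e-06), Il1rl1, which lies between Il1rl2 and Il18rap, differed by -0.05 (adjusted p = 0.862), and Il18r1, the ligand-binding partner of Il18rap, rose by 1.73 (adjusted p = 0.000465). Il18r1 had 11, 16, 12 and 17 reads in the controls and 54, 33, 47 and 50 in the knockout tumors, so the paired chains of the IL-18 receptor moved in opposite directions. Among tested neighbours within 5 Mb the median change on the log2 scale was -0.39 around Il1rl2 (57 genes, none of them lower by more) and -0.38 around Il18rap (58 genes, 3 of them lower by more).

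Promoter sequence was examined for the genes whose 250 bases before the start are held by RefSeq (GRCm38.p6), which were 17 of the 25 tested. On both strands 3 motifs were searched, the STAT elements TTCNNNGAA and the same with a spacer of NNNN, and the AP-1 element TGANTCA. They occur in 7.02%, 5.85% and 6.75% of all 32851 promoters of this length. The first was found for Il12rb2 and Il7r, the second for Il18rap, and the last for Il13ra2, Il15ra and Il16. A match is a description of letters and not evidence of binding. The promoters of Il1rl2 and Il18rap, which both fell, and of Il13ra2, which rose, are printed from 5′ to 3′ on the strand of the gene, with a match in capitals. The Il18rap match starts at base -167 and the Il13ra2 match at base -193 from the start, and Il1rl2 held none of the 3 motifs in this window. They lie at chr1:40324339-40324588 (plus strand), chr1:40515112-40515361 (plus strand) and chrX:147429193-147429442 (minus strand).
Il1rl2: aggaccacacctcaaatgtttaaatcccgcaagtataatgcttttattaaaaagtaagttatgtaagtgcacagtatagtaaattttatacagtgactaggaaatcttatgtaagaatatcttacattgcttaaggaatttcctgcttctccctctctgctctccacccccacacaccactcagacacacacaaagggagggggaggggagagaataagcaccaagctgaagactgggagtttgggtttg
Il18rap: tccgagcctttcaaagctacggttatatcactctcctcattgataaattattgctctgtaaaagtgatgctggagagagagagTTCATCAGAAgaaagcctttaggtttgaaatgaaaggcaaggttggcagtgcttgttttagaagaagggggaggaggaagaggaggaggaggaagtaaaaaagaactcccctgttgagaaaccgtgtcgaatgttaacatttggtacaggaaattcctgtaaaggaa
Il13ra2: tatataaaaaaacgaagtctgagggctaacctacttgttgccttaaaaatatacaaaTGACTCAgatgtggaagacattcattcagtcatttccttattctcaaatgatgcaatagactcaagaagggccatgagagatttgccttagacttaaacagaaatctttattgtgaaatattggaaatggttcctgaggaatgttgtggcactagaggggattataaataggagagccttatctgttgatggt

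Il18bp, the secreted inhibitor of IL-18, had 71, 62, 45 and 51 reads in the controls and 182, 28, 40 and 53 in the knockout tumors. A single tumor, cxC26 IL6KOs1 replicate 1, was high. The fitted log2 change was 0.08 ± 0.43 (limma adjusted p = 0.903), and -0.44 (adjusted p = 0.189) without that tumor. The IL-36 ligands were nearly silent beside their receptor. Il36a and the antagonist gene Il36rn had 0 reads, Il36b had 1, and Il36g had 3, 3, 1 and 2 reads in the controls and 4, 5, 2 and 4 in the knockout tumors. The neuronal accessory proteins Il1rapl1 and Il1rapl2 and the ligand gene Il1f10 had 0 reads.

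In the IL-17 family 3 receptor genes were tested and moved in different directions. Il17rd, also known as Sef, is an atypical receptor that restrains fibroblast growth factor signalling. It had 232, 223, 228 and 239 reads in the control tumors and 70, 64, 50 and 56 in the knockout tumors. The controls varied little and the groups were far apart. Il17rd fell by 1.89 on the log2 scale (SE 0.16, 3.72-fold lower, limma adjusted p = 7.85e-06), while the 52 tested genes within 5 Mb on chromosome 14 had a median of 0.05.

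Il17rc and Il17ra together form the receptor for IL-17A and IL-17F, and both had higher values. Il17rc had 721, 456, 463 and 507 reads in the controls and 801, 741, 698 and 643 in the knockout tumors. Scaled to library size the groups were separate, with controls up to 43.2 CPM and knockout tumors from 44.3 CPM. The rise was 0.50 ± 0.13 on the log2 scale (limma adjusted p = 0.0101).

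Il17ra had 524, 470, 375 and 411 reads in the controls and 810, 475, 470 and 539 in the knockout tumors, and the groups overlapped. Its log2 difference was 0.39 ± 0.14 (limma adjusted p = 0.0499) and 0.25 (adjusted p = 0.112) without cxC26 IL6KOs1 replicate 1. The call held in 3 of the 8 other settings and in 2 of the 8 fits that left out a tumor, those without cxC26 scr replicate 1 and without cxC26 IL6KOs1 replicate 3.

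The IL-17 ligands were rare. Il17a and Il17b had 0 reads in every tumor, Il17f had 6 in all and Il25 had 8. Il17d, a ligand expressed in several non-lymphoid tissues, had 13, 18, 18 and 11 reads in the controls and 4, 1, 2 and 1 in the knockout tumors. These groups did not overlap, and the difference of the means was -2.71 log2 CPM on 60 against 8 reads. Il17d was under the filter and was tested only in the fit without one and in the fit with a filter at 0.5 CPM. Without a filter limma gave an adjusted p of 0.00141, and with a pseudocount of 1 CPM the difference was -0.80. Il17c had 7, 2, 6 and 4 reads against 9, 6, 1 and 2, and the IL-25 receptor Il17rb had 3, 5, 1 and 0 against 5, 4, 4 and 3.

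Of 7 tested genes of IL-17 signalling and response 2 were called higher and 0 lower. The counts of this and the following lists stand beside 19.1% of all tested genes called higher and 20.7% called lower. The lists were not tested as sets. Traf3ip2, the adaptor of the receptor, rose by 0.47, and Lcn2, an iron-binding protein made in inflamed tissue, rose by 1.81. The genes of highest log2 CPM in the list, Nfkbiz, Traf6 and Traf3ip2, lay between 3.91 and 6.24 log2 CPM in the controls. Traf6 differed by 0.22 (limma adjusted p = 0.121) and Nfkbiz by 0.03 (adjusted p = 0.881).

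**Figure D3:**
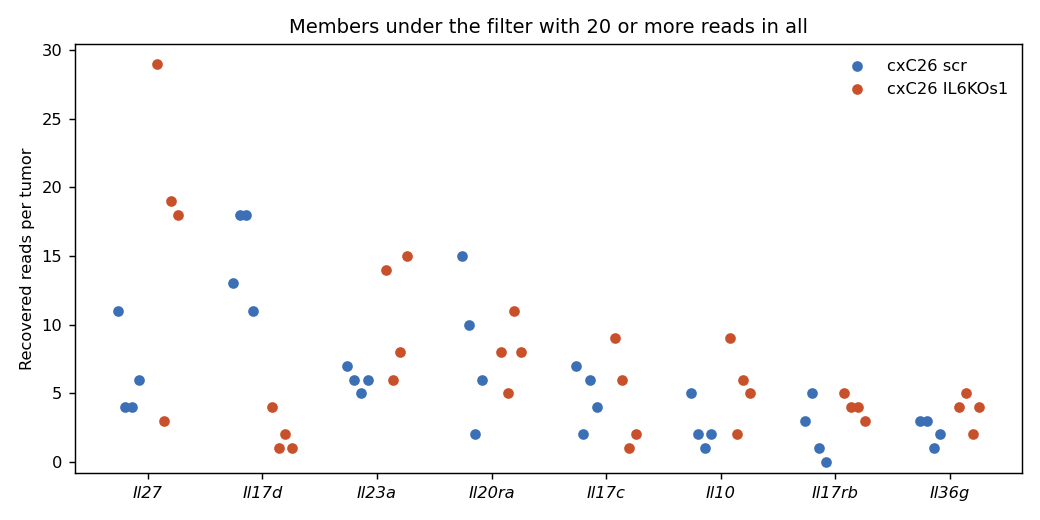
Reads in each tumor of the 8 genes under the filter that had 20 or more reads in all, blue for cxC26 scr and orange for cxC26 IL6KOs1. Il17d has 11 to 18 reads in the controls and 1 to 4 in the knockout tumors, while the unscaled read counts of the other 7 genes overlap between the groups.

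In the IL-10 family 2 of 3 tested receptor genes were called higher, of which the call of Il10ra held in all alternatives, and the ligands were scarce. Il10ra encodes the chain that binds IL-10 on macrophages and lymphocytes. Its reads were 230, 211, 184 and 197 in the controls and 681, 248, 381 and 283 in the knockout tumors. The controls were nearly equal and all lay below the lowest knockout tumor. The rise was 0.89 ± 0.22 on the log2 scale (limma adjusted p = 0.0077), and 0.63 (adjusted p = 0.00312) without cxC26 IL6KOs1 replicate 1.

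Il10rb, the partner chain shared with IL-22 and the type III interferons, changed little. It had 409, 398, 348 and 346 reads against 483, 357, 532 and 412. The scaled values did not overlap, from 22.5 to 24.6 CPM in the controls and from 25.8 to 33.7 CPM in the knockout tumors. The log2 difference was 0.29 ± 0.11 (limma adjusted p = 0.0486). The call held in 2 of 8 other settings and, of the fits that left out a tumor, in the one without cxC26 IL6KOs1 replicate 2. The adjusted p was 0.15 without cxC26 IL6KOs1 replicate 3 and 0.127 without cxC26 scr replicate 4.

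Il20rb, a chain of the receptors for IL-19, IL-20 and IL-24, had 17 to 30 reads in the controls and 13 to 21 in the knockout tumors (-0.38 ± 0.30, limma adjusted p = 0.346). Its partner Il20ra had 15, 10, 2 and 6 reads against 8, 5, 11 and 8. Il10 itself, which damps macrophage and T cell responses, had 5, 2, 1 and 2 reads against 9, 2, 6 and 5. Il20, Il22 and Il22b had 0 reads, Il24 had 1 and Il19 had 7 in all.

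Of 6 tested genes of the IL-10 and IL-22 response 1 was called higher and 4 lower. Fpr2, a formyl peptide receptor of phagocytes, rose by 2.23. Bcl3, a nuclear cofactor of NF-kB, fell by 1.53, Nfil3, a basic leucine zipper factor, by 1.07, Socs3, a feedback inhibitor of cytokine receptors, by 0.86 and Sbno2, a transcriptional coregulator, by 0.33. As background, Socs3 and Bcl3 are also known targets of STAT3, the factor that IL-6 activates.

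Il13ra2 and Il13ra1, which bind the same ligand, did not move together. Il13ra2 encodes a decoy receptor that binds IL-13 without the usual signal. Its reads were 17, 13, 9 and 12 in the controls and 26, 48, 73 and 73 in the knockout tumors. The controls had 0.632 to 1.02 CPM, so Il13ra2 met the filter largely through the knockout tumors. All knockout tumors were higher, and cxC26 IL6KOs1 replicate 1 was the nearest to the controls. The change was 2.04 ± 0.36 (4.11-fold, limma adjusted p = 0.00111) and 2.39 without that tumor (adjusted p = 8.08e-05), and 1.31 with a pseudocount of 1 CPM (adjusted p = 0.00144).

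Il13ra1, the signalling chain that pairs with Il4ra, had 524, 705, 796 and 847 reads in the controls and 762, 485, 460 and 413 in the knockout tumors. The first tumor of each group stood away from the other 3 and the groups overlapped. On the log2 scale the difference was -0.41 ± 0.20 (limma adjusted p = 0.126), and the gene passed as lower without cxC26 scr replicate 1 (-0.58, adjusted p = 0.0232) or without cxC26 IL6KOs1 replicate 1 (-0.56, adjusted p = 0.0288). Its ligand Il13 had 5 reads over all tumors.

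Mast cell markers, like Il13ra2, were lowest in replicate 1 among the knockout tumors. All 5 tested mast cell markers were called higher, and the 7 listed ones summed to 9.10 to 12.4 CPM in the controls, 24.4 CPM in cxC26 IL6KOs1 replicate 1 and 144 to 146 CPM in the other 3. The part of these cells in the change of Il13ra2 was not tested. Of 7 tested genes of the IL-4 and IL-13 response 3 were called higher and 1 lower. The higher genes were Mrc1 (0.52), a macrophage mannose receptor, Ccl11 (0.91), an eosinophil chemokine, and Tgm2 (1.19), a transglutaminase. Cish, a STAT5-induced inhibitor, fell by 1.35. Arg1, a macrophage arginase, differed by 1.69 (limma adjusted p = 0.0786). The count of higher genes in this list was 1 without cxC26 scr replicate 3, without cxC26 scr replicate 4 or without cxC26 IL6KOs1 replicate 2.

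Il3ra, the private chain for IL-3, fell. It acts with the common beta chain on mast cells, basophils and myeloid precursors. Its reads were 238, 204, 224 and 227 in the controls and 153, 88, 162 and 89 in the knockout tumors. The groups did not overlap, and the knockout tumors fell into a higher and a lower pair. Il3ra fell by 0.86 on the log2 scale (SE 0.18, limma adjusted p = 0.00342). The common beta chain gene Csf2rb differed by 0.19 (adjusted p = 0.444) and the related gene Csf2rb2 by 0.02 (adjusted p = 0.943). Of 4 tested partner chains without an interleukin symbol 0 were called higher and 1 lower, which was Osmr, the oncostatin M receptor, with a fall of 1.26. Crlf2, a chain of the receptor for TSLP, differed by -0.07 (limma adjusted p = 0.679). Markers of cells that can carry Il3ra moved in both directions. The mast cell markers described above were higher in the knockout tumors, opposite to Il3ra. Of 5 dendritic cell markers the 2 tested, Zbtb46 and Itgax, were called lower. The other 3 were under the filter, with Flt3 at 8, 11, 1 and 9 reads in the controls and 11, 14, 23 and 16 in the knockout tumors, Xcr1 at 2 to 5 against 6 to 17 and Clec9a at 5 to 10 against 5 to 16. The 5 summed to 77.2 to 106 CPM in the controls and 14.0 to 59.1 CPM in the knockout tumors, a sum made up largely of Itgax (919 to 1603 reads against 145 to 880). The part of mast or dendritic cells in the change of Il3ra was not tested. The related genes Il3, Il5 and Il5ra had 1, 2 and 9 reads in all.

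None of the 3 tested genes of the IL-12 family was called by limma, and the 95% interval of each included 0. Il12rb1, shared by the receptors for IL-12 and IL-23, had 45, 24, 15 and 22 reads against 44, 16, 36 and 24 (0.24 ± 0.35, limma adjusted p = 0.619). Il12rb2, the second chain for IL-12, differed by 0.06 ± 0.28 (adjusted p = 0.886). Il27ra, the chain for IL-27, differed by -0.04 ± 0.19 with a 95% interval of -0.45 to 0.37 (adjusted p = 0.88), which leaves room for modest changes.

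The ligand genes of this family were low but present. Il27 had 11, 4, 4 and 6 reads in the controls and 29, 3, 19 and 18 in the knockout tumors, where replicate 2 stood apart. Il23a had 7, 6, 5 and 6 reads against 14, 6, 8 and 15, and after scaling to library size its groups were narrowly separate, with controls up to 0.420 CPM and knockout tumors from 0.433 CPM. Il12a and Il12b had 5 and 8 reads in all, and Il23r had 3. In the fit without a filter the adjusted p from limma was 0.179 for Il27 and 0.243 for Il23a.

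Of 4 tested genes of the IL-12 and type 1 response 2 were called higher, the interferon-induced chemokines Cxcl9 (3.42) and Cxcl10 (1.95). This count was 0 without cxC26 scr replicate 3 or without cxC26 scr replicate 4, and 1 without cxC26 scr replicate 1, cxC26 scr replicate 2, cxC26 IL6KOs1 replicate 1 or cxC26 IL6KOs1 replicate 4. It was also 0 when no trend was fitted, and 1 with voom weights or a pseudocount of 1 CPM. Cxcl9 had 3038 reads in cxC26 IL6KOs1 replicate 1 and 23 to 67 in the other knockout tumors, against 7 to 24 in the controls. Irf1, an interferon-induced factor and the list's gene of highest log2 CPM, differed by 0.55 (limma adjusted p = 0.193). Ifng, the main product of IL-12 signalling, had 0 reads in every control and 33, 0, 1 and 2 reads in the knockout tumors.

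Il16, a chemoattractant for CD4+ cells cut from a larger precursor, had 417, 450, 491 and 453 reads in the controls and 591, 395, 779 and 671 in the knockout tumors. Replicate 2 of the knockout tumors lay among the controls. The fitted log2 change was 0.44 ± 0.17 (limma adjusted p = 0.0566), and it passed without that tumor (0.59, adjusted p = 0.00818) and without cxC26 scr replicate 3 (0.52, adjusted p = 0.0468). The IL-31 genes were nearly silent, with 0 reads for Il31 and 4 for Il31ra.

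Genes for Janus kinases and STAT proteins, which carry the signal of most of these receptors, moved in both directions. Stat2, which acts below the interferon receptors, rose by 1.12 on the log2 scale and Stat6, which acts below the IL-4 and IL-13 receptors, rose by 0.60. Stat3 fell by 0.52 and Jak3, the kinase bound to the common gamma chain, fell by 0.50. Those of highest log2 CPM over all 8 tumors were Stat3, Jak1 and Jak2, and Jak1 differed by 0.04 (limma adjusted p = 0.682) and Jak2 by -0.13 (adjusted p = 0.564). The count of lower genes in this list was 2, and 1 without cxC26 scr replicate 4.

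Of 8 tested genes of the IL-2, IL-7 and IL-15 response 4 were called higher and 1 lower. Gzmb and Prf1, the granzyme and perforin of cytotoxic lymphocytes, rose by 3.11 and 3.02, Socs2, a feedback inhibitor, by 0.99 and the kinase gene Pim1 by 0.55, while Cish fell by 1.35. The Prf1 groups overlapped, with 3, 20, 4 and 0 reads in the controls and 190, 14, 16 and 13 in the knockout tumors, where replicate 1 stood far above the rest. Of the genes of highest log2 CPM, Mcl1 and Myc were not called and Pim1 was. The count of higher genes was 2 without cxC26 scr replicate 1, cxC26 scr replicate 3, cxC26 scr replicate 4, cxC26 IL6KOs1 replicate 1 or cxC26 IL6KOs1 replicate 3, and likewise with quantile normalization, voom weights or no trend.

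Levels of different genes were compared as CPM per kilobase of exon. In the control tumors the highest means were 15.1 ± 0.93 for Il4ra, 14.3 ± 1.86 for Il18rap, 12.8 ± 2.39 for Il17rc and 12.5 ± 3.10 for Il13ra1 (SD, n = 4), and these neighbours lie within each other's spread. In the knockout tumors Il4ra (17.9 ± 2.77) and Il17rc (17.9 ± 1.66) led, followed by Il2rg (9.82 ± 3.75) and Il13ra1 (9.40 ± 2.29), and Il18rap stood at 5.39 ± 0.86. Il13ra2 remained far below Il13ra1, at 0.354 ± 0.070 in the controls and 1.61 ± 0.68 in the knockout tumors. Il2rb was the lowest of the 25 in the controls (0.110 ± 0.065) and reached 1.09 ± 0.88 in the knockout tumors.

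The ligand Il7 moved from 0.784 ± 0.19 to 3.47 ± 0.93 CPM per kilobase, which passed Il15 (0.917 ± 0.37 and 1.58 ± 0.50). Its receptor chain Il7r stayed lower, at 0.330 ± 0.18 and 0.748 ± 0.42. Il1rl2 moved from 3.28 ± 0.59 to 0.857 ± 0.15, and Il17rd from 1.35 ± 0.10 to 0.363 ± 0.057.

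**Figure D4:**
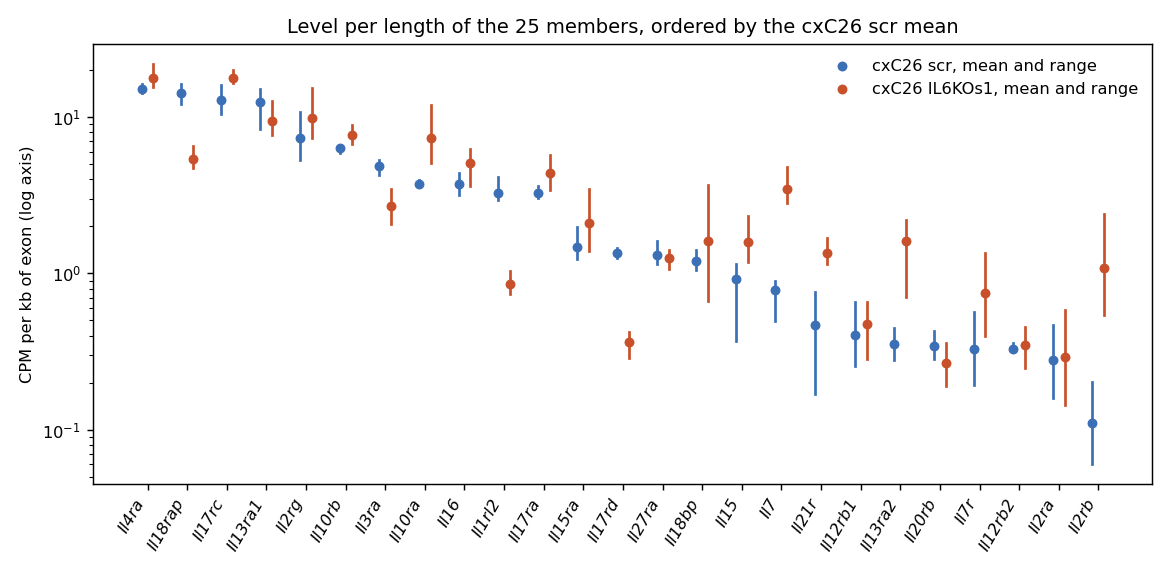
Mean and range over 4 tumors of CPM per kilobase of exon on a log axis for the 25 tested genes, ordered by the cxC26 scr mean. The order runs from Il4ra at 15.1 to Il2rb at 0.110, and Il18rap, Il1rl2 and Il17rd leave their place downwards in cxC26 IL6KOs1 while Il7, Il13ra2 and Il2rb leave it upwards.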

How the data were processed

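RNA was measured in 8 tumors, which were grouped by their titles into 4 cxC26 scr and 4 cxC26 IL6KOs1. Libraries were made from poly(A)-selected RNA and sequenced as paired reads. The authors used Trimmomatic for trimming, Hisat2 with the mm10 genome for alignment and featureCounts for gene counts, and deposited log2 CPM values from limma-voom. The submitters' processing notes also name bcl2fastq 2.17, and the annotation and strand setting are not given in the sources used here. Without strand, reads of overlapping genes cannot be told apart, and 8 of the 25 tested genes overlap another gene (Il1rl2, Il7, Il10ra, Il12rb2, Il13ra1, Il16, Il27ra and Il2ra).

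Whole reads were recovered from the deposited values (voom adds 0.5 reads), and 100% came out whole within 0.05. Totals were 14158989 to 17048062 reads per tumor, which limits the precision of genes with few reads. Genes that reached 1 CPM in 4 or more tumors were tested with limma 3.58.1 (lmFit, eBayes with trend) in R 4.3.3 on the deposited log2 CPM, with Benjamini-Hochberg adjustment and a threshold of 0.05. The method was tested on simulated reads, with the same spread between tumors set for every gene and few genes changed. That simulation does not cover genes that vary more between tumors. Single values were also tested by exact permutation (scipy 1.17.1). Exon lengths came from GENCODE M21 and positions from RefSeq.

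Named were all tested genes, those under the filter with at least 20 reads and, of each response list, the genes called and the 3 of highest log2 CPM. Genes with fewer reads, Ifng and the IL-1 receptor genes beside Il1rl2 were added after their values were seen. Some results of the signalling list are not reported here. The genes and lists were chosen with earlier results of these data known. The alternatives were no filter, a filter at 0.5 CPM, quantile normalization, median re-centring, no trend, voom weights, a pseudocount of 1 CPM, a replicate block and leaving out each tumor.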

Additional observations from a re-analysis of the deposited data

Results flagged for a closer look

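In 66 groups of 4 tumors, Dixon's test at its 95% critical value set apart 4 tumors, and chance would set apart about 3.3. In cxC26 scr replicate 3 Il1rl2 was the highest, at 4.83 log2 CPM. In cxC26 scr replicate 4 Il10rb was the lowest, at 4.49 log2 CPM. In cxC26 scr replicate 1 both Il7 (1.51 log2 CPM) and Il15 (-0.20 log2 CPM) were the lowest of their group. Left without the tumor set apart, the log2 difference was -1.81 for Il1rl2, 0.26 for Il10rb, 1.94 for Il7 and 0.48 for Il15.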

How the results depend on the processing

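Across all alternatives the number of the 25 genes called higher ran from 6 to 10 and of those called lower from 4 to 5, and over all tested genes from 2023 to 2628 and from 2193 to 2773. The replicate numbers do not pair the tumors, since the deviations of equally numbered tumors correlated by -0.06, 0.06, 0.02 and -0.06 and 2 of 8 tumors correlated best with their own number. With the replicate number as a block 10 genes were higher and 4 lower, and 2477 and 2688 over all tested genes. With this block limma also called Il2rg (adjusted p = 0.0214), Il16 (0.0209) and Il4ra (0.0479) higher, and Il10rb lost its call (0.0633). Direction turned for 4 genes without a call. Over the fits that left out a tumor the values ran from -0.46 to 0.22 for Il2ra, from -0.073 to 0.21 for Il12rb2, from -0.44 to 0.38 for Il18bp and from -0.097 to 0.064 for Il27ra, and with quantile normalization Il12rb2 was at -0.089 and Il18bp at -0.070. The cause was not tested. Depth limits the 43 genes under the filter, for which only large differences could be seen.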
